A study of Mus musculus with 12 samples.

Results

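The transcripts of 10 genes of the actin cytoskeleton are described here across 4 genotypes of mouse embryonic stem cells. They are the actins Acta1, Acta2, Actb and Actg1, the calponin family genes Tagln, Cnn1 and Cnn2, the tropomyosins Tpm1 and Tpm2, and the myosin light chain Myl9. They were chosen by name, as actins and smooth muscle contractile genes that are textbook targets of serum response factor (SRF), after earlier results of these libraries had shown fold changes of such genes between the genotypes. All 10 were found among the 32285 genes of the count table and all 10 were among the 12765 genes with enough counts to be tested. Because differences between these genotypes were used to pick the genes, their levels and fold changes are given as a description and no p-value is printed for them.

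The study compared cells lacking 1 or both of a pair of helicases that unwind G-quadruplexes, structures that guanine-rich DNA or RNA can fold into. The groups were the double knockout (DHX36/FANCJ KO), the DHX36 knockout (DHX36 KO), the FANCJ knockout (FANCJ KO) and wild-type cells (WT), with 3 libraries each and 12 in all. All were untreated cells of the IB10 line, which comes from 129/Ola mice, kept on gelatin in conditioned medium with fetal calf serum and leukaemia inhibitory factor. Bulk RNA was counted by 3′ tags with a method like CEL-Seq2, in which transcripts receive a sample barcode at the poly(A) end before pooling. How many clones stand behind a genotype, and whether its libraries are separate cultures, is not given in the sources used here. The spread between libraries may therefore be technical.

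Actin monomers polymerise into filaments that give cells shape and, with myosin, pull. Actb and Actg1 encode the cytoplasmic actins of every cell, Acta1 the actin of skeletal muscle and Acta2 that of smooth muscle. SRF binds DNA with cofactors of the MRTF family, which are held in the cytoplasm by actin monomers and released when these are used up in filaments, so that genes for actin and its partners are under a feedback from actin itself. Smooth muscle cells express the contractile set strongly, but many dividing cells in serum culture, stem cells among them, also carry these transcripts.

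Total counts were 4284785 to 14721931 per library, and every DHX36/FANCJ KO library was deeper than any WT library. The members had 17 counts (Myl9 in DHX36/FANCJ KO replicate 1) to 91098 counts, so that Myl9 was the least precisely measured. Tags of Dhx36 itself were at 12.2 to 15 CPM in DHX36/FANCJ KO, 8.83 to 11.6 in DHX36 KO, 51.4 to 57.9 in FANCJ KO and 50.1 to 57.6 in WT. Brip1, the mouse gene for FANCJ, was at 0.178 to 0.743 CPM in DHX36/FANCJ KO, 6.44 to 7.41 in DHX36 KO, 0.129 to 0.618 in FANCJ KO and 6.71 to 7.02 in WT. Both genes were thus low in every library whose label names their knockout. CPM (counts per common library total) are here the deposited counts scaled to a library total normalised by trimmed means. They are compared between libraries for a gene and not between genes, since the yield of a 3′ tag can differ from gene to gene.

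The DNA element that SRF recognises is the CArG box, CC followed by 6 bases that are each A or T and then GG, which has this form on both strands. It was searched in RefSeq promoter windows of build GRCm38.p6, from 250 bases before to 50 bases after a gene's start, of which 8 of the 10 members had one. The box was in the windows of 4 members, Acta1, Actg1, Cnn2 and Myl9, against 1.63% of all 32851 windows and 1.26% of the 12812 windows of genes tested. The sequences below are the 50 bases around each of these boxes, shown because they hold the element for which the set is known, with the box in capitals and read 5′ to 3′ on the gene's strand. That of Acta1 is at chr8:123894819-123894868 on the minus strand, that of Actg1 at chr11:120348556-120348605 on the minus strand, that of Cnn2 at chr10:79988524-79988573 on the plus strand and that of Myl9 at chr2:156775283-156775332 on the plus strand. The first base of the box was 73 bases before the start of Acta1, 90 before that of Actg1, 56 before that of Cnn2 and 161 before that of Myl9.
Acta1: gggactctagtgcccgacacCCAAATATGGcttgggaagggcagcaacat
Actg1: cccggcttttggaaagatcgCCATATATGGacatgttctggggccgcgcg
Cnn2: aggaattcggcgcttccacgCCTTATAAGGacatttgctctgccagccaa
Myl9: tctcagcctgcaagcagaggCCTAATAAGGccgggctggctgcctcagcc

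Boxes with 1 G or C among the 6 core bases were commoner, in 8.5% of all windows and 7.51% of those of genes tested. Acta2 had a pair of these and no full box, CCCTATATGG from 84 bases before the RefSeq start and CCTTGTTTGG from 34 bases before it, on the minus strand of chromosome 19. The 50 bases around each of these 2 sites overlap an exon of Acta2 in the GENCODE annotation, whose gene reaches further upstream than the RefSeq start. Whether the sites themselves lie in the exon was not checked. Acta1 had 2 and Myl9 had 1 in addition to their full boxes. Neither form was found in the windows of Cnn1, Tpm1 and Tpm2, which says only that these letters are not there. A match is a stretch of sequence and not a measured site of SRF binding, and windows of Actb and Tagln were not searched.

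The smooth muscle actin Acta2, on chr19:34241090-34255590 (minus strand, protein coding, GRCm38), differed most between genotypes among the actins. It had 49.2, 40.3 and 47.8 CPM in the DHX36/FANCJ KO libraries, 179, 161 and 156 CPM in DHX36 KO, 529, 534 and 509 CPM in FANCJ KO and 388, 314 and 385 CPM in WT. No library of one genotype reached into the range of another, and FANCJ KO stood above WT while DHX36/FANCJ KO stood lowest. Its level averaged 45.8 ± 4.80 CPM in DHX36/FANCJ KO, 165 ± 12.1 in DHX36 KO, 524 ± 13.5 in FANCJ KO and 363 ± 41.9 in WT (SD, n = 3 each). These gaps between genotypes were wider than the spread within any of them. They put Acta2 7.91-fold lower in DHX36/FANCJ KO than in WT (log2 fold change -2.98, SE 0.10) and 2.19-fold lower in DHX36 KO than in WT (-1.13, SE 0.10). In FANCJ KO it was 1.45-fold higher than in WT (0.53, SE 0.09). Between DHX36/FANCJ KO and FANCJ KO the difference was 11.4-fold, the 4th largest fall in that comparison among the 12765 genes.

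The skeletal muscle actin Acta1 lies at chr8:123891769-123894751 on the minus strand. It had 17.4, 17.9 and 18.5 CPM in DHX36/FANCJ KO, 29.4, 34.1 and 35.04 CPM in DHX36 KO, 79.9, 91.8 and 80.1 CPM in FANCJ KO and 75.5, 82.0 and 64.4 CPM in WT. The genotypes without DHX36 were apart from each other and from the rest, whereas the FANCJ KO and WT libraries overlapped. The log2 fold change to WT was -2.05 (SE 0.11) in DHX36/FANCJ KO, -1.18 (SE 0.11) in DHX36 KO and 0.18 (SE 0.10) in FANCJ KO.

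Actb, the cytoplasmic beta actin on chr5:142903115-142906754 (minus strand), had 1833, 1586 and 2108 CPM in DHX36/FANCJ KO, 2599, 2770 and 2489 CPM in DHX36 KO, 2979, 4015 and 3663 CPM in FANCJ KO and 3670, 3533 and 3952 CPM in WT. DHX36/FANCJ KO was again lowest and DHX36 KO next, FANCJ KO and WT overlapped, and there was a wide spread within DHX36/FANCJ KO and FANCJ KO. Its level was 2.02-fold lower in DHX36/FANCJ KO than in WT (log2 -1.01, SE 0.10) and 1.42-fold lower in DHX36 KO than in WT (-0.51, SE 0.10). Actb is widely used as a reference gene for RNA levels.

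Actg1, the cytoplasmic gamma actin on chr11:120345690-120348542 (minus strand), was the member with the smallest differences. Its libraries were at 6161, 6264 and 6534 CPM in DHX36/FANCJ KO, 6736, 6645 and 6699 CPM in DHX36 KO, 9112, 9956 and 8455 CPM in FANCJ KO and 8735, 9631 and 8887 CPM in WT. Those without DHX36 were all below those with it, and DHX36/FANCJ KO was only just below DHX36 KO. The log2 fold change to WT was -0.52 (SE 0.07) in DHX36/FANCJ KO and -0.44 (SE 0.07) in DHX36 KO. It was 0.01 (SE 0.07) in FANCJ KO.

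**Figure D1:**
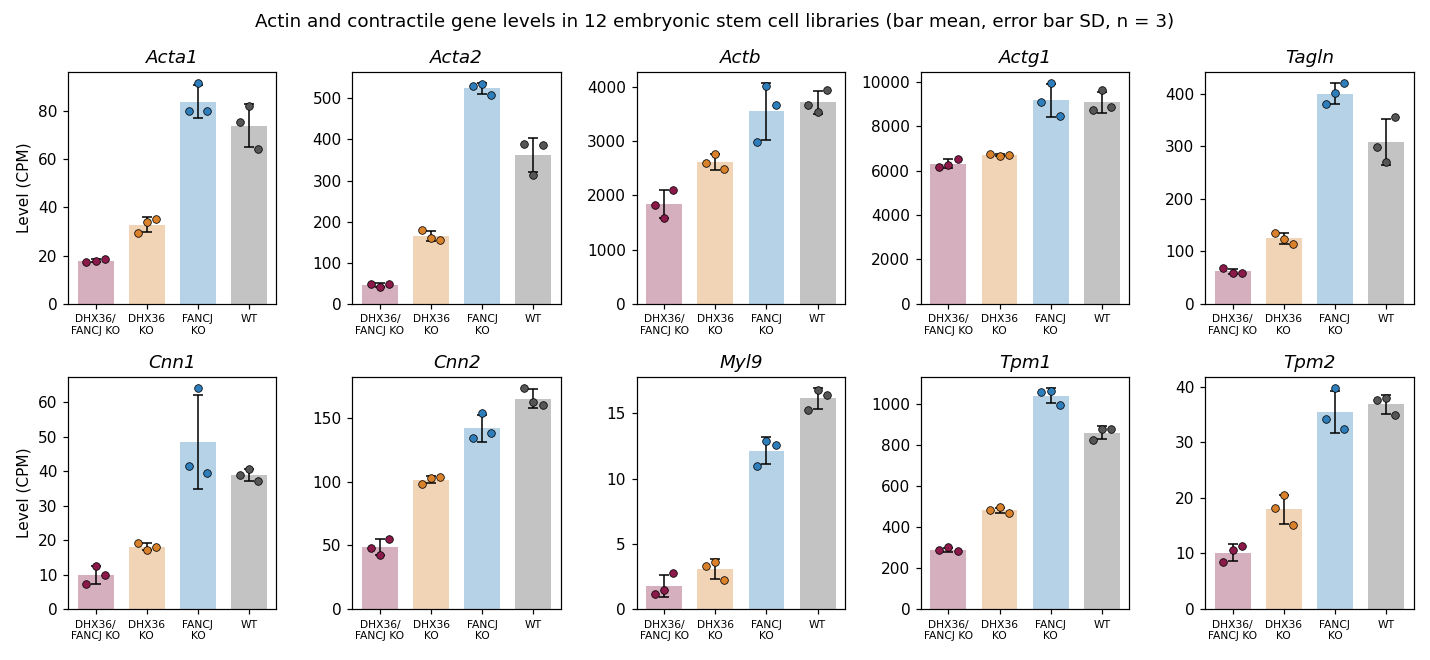
Levels of the 10 genes in CPM (y axis, its own scale for each gene) in the 12 libraries, grouped by genotype on the x axis, with points for libraries, bars for means and error bars for the SD (n = 3). For every gene DHX36/FANCJ KO has the lowest mean and DHX36 KO the second lowest, as with Acta2 at 45.8 CPM in DHX36/FANCJ KO, 165 in DHX36 KO and 363 in WT.

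With unequal fold changes of the isoforms, the make-up of the actin tags differed between genotypes. The 2 muscle actins, Acta1 and Acta2, together gave 0.774% ± 0.0467 of the tags of the 4 actin genes in DHX36/FANCJ KO, 2.08% ± 0.0866 in DHX36 KO, 4.57% ± 0.255 in FANCJ KO and 3.30% ± 0.347 in WT (SD, n = 3 each). No library overlapped with one of another genotype. The lowest single share was 0.735% in DHX36/FANCJ KO replicate 2 (exact 95% Clopper-Pearson interval 0.683% to 0.790%, 729 of 99162 actin tags), and the highest was 4.79% in FANCJ KO replicate 1 (4.66% to 4.93%, 4724 of 98526). These intervals cover counting error only. Within the muscle pair, 71.8% ± 2.32 of tags were from Acta2 in DHX36/FANCJ KO, 83.3% ± 2.27 in DHX36 KO, 86.2% ± 0.819 in FANCJ KO and 82.9% ± 3.27 in WT.

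Actg1 held 77.5% ± 2.13 of the cytoplasmic actin tags in DHX36/FANCJ KO, 71.9% ± 1.18 in DHX36 KO, 72.2% ± 2.90 in FANCJ KO and 70.9% ± 2.05 in WT, and the DHX36/FANCJ KO libraries (75.6% to 79.8%) were above all others, though FANCJ KO replicate 1 came close with 75.4%. All 4 actin genes together took 0.835% ± 0.0535 of library counts in DHX36/FANCJ KO, 0.963% ± 0.0295 in DHX36 KO, 1.31% ± 0.0981 in FANCJ KO and 1.31% ± 0.0231 in WT. Actin genes are near copies in their coding parts, and how reads with several alignments were handled is not known here. The division of tags between isoforms is therefore less certain than their sum.

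**Figure D2:**
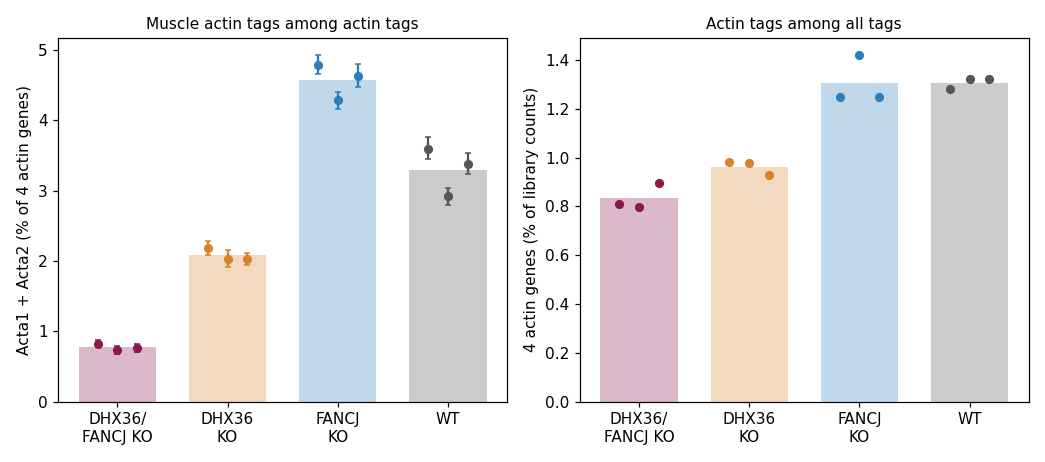
Left, share of muscle actin tags (Acta1 and Acta2) among tags of the 4 actin genes in percent, with the exact 95% interval of each library; right, share of the 4 actin genes in all counts of a library in percent. Points are libraries and bars are means by genotype (x axis); the left share is 0.774% in DHX36/FANCJ KO and 3.30% in WT, while the right share differs less, 0.835% and 1.31%.

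Of the calponin family, whose proteins lie along actin filaments, Tagln (transgelin, also called SM22 alpha, chr9:45929619-45936058, minus strand) had its genotypes in the same order as Acta2. It had 67.3, 58.6 and 58.7 CPM in DHX36/FANCJ KO, 135, 124 and 115 CPM in DHX36 KO, 380, 400 and 420 CPM in FANCJ KO and 299, 269 and 356 CPM in WT. As for Acta2, no 2 genotypes overlapped and FANCJ KO was highest. Tagln was 5.00-fold lower in DHX36/FANCJ KO than in WT (log2 -2.32, SE 0.10), 2.48-fold lower in DHX36 KO (-1.31, SE 0.10) and 1.30-fold higher in FANCJ KO (0.38, SE 0.10). Its locus overlaps Pcsk7 by 108 bases and the antisense transcript Gm48529 by 3627 bases, both on the other strand. These had 1828 and 183 counts over the 12 libraries, and the handling of strand in the counting is not given in the sources used here.

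Calponin 1 (Cnn1, chr9:22099216-22109630, plus strand), a regulator of smooth muscle contraction, had 7.24, 12.4 and 9.97 CPM in DHX36/FANCJ KO, 19.1, 17.2 and 18.03 CPM in DHX36 KO, 41.6, 64.1 and 39.4 CPM in FANCJ KO and 39.0, 40.7 and 37.2 CPM in WT. FANCJ KO replicate 2 was well above its fellow libraries, and the FANCJ KO and WT ranges overlapped. Calponin 2 (Cnn2, chr10:79988584-79996062, plus strand), the form of non-muscle cells, had 47.8, 42.9 and 55.2 CPM in DHX36/FANCJ KO, 98.4, 103 and 104 CPM in DHX36 KO, 134, 154 and 138 CPM in FANCJ KO and 174, 163 and 160 CPM in WT. Here no genotypes overlapped and WT, not FANCJ KO, was highest. Cnn1 was 3.98-fold and Cnn2 3.41-fold lower in DHX36/FANCJ KO than in WT (log2 -1.99, SE 0.18, and -1.77, SE 0.10). In DHX36 KO the log2 fold change to WT was -1.10 (SE 0.18) for Cnn1 and -0.70 (SE 0.09) for Cnn2.

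Tropomyosins wind along the actin filament and govern which proteins can bind it. Tpm1 (chr9:67022590-67049406, minus strand) had 286, 301 and 283 CPM in DHX36/FANCJ KO, 481, 496 and 469 CPM in DHX36 KO, 1057, 1066 and 997 CPM in FANCJ KO and 823, 877 and 881 CPM in WT, with no overlap between genotypes. Tpm2 (chr4:43514711-43523765, minus strand) had 8.39, 10.7 and 11.3 CPM in DHX36/FANCJ KO, 18.1, 20.5 and 15.2 CPM in DHX36 KO, 34.3, 39.8 and 32.4 CPM in FANCJ KO and 37.6, 38.0 and 34.9 CPM in WT. For Tpm2, unlike Tpm1, the FANCJ KO and WT libraries lay among each other. Tpm1 was 2.97-fold and Tpm2 3.66-fold lower in DHX36/FANCJ KO than in WT, and in DHX36 KO the folds were 1.79 and 2.08. Counts per gene, as used here, do not separate the muscle and non-muscle splice forms of Tpm1 and Tpm2.

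Myl9, a regulatory light chain of smooth muscle and non-muscle myosin II (chr2:156775420-156781658, plus strand), had 17, 18 and 31 counts in DHX36/FANCJ KO, 30, 23 and 24 in DHX36 KO, 85, 97 and 61 in FANCJ KO and 69, 95 and 70 in WT. Scaled to the library, that was 1.15, 1.44 and 2.76 CPM in DHX36/FANCJ KO, 3.34, 3.63 and 2.22 CPM in DHX36 KO, 10.96, 12.9 and 12.6 CPM in FANCJ KO and 15.3, 16.8 and 16.4 CPM in WT. It was the one member whose DHX36/FANCJ KO and DHX36 KO libraries overlapped, and both were far below the others. With a log2 fold change to WT of -3.21 (SE 0.24) in DHX36/FANCJ KO and -2.44 (SE 0.24) in DHX36 KO, it ranked 9th and 16th from the lowest of the 12765 genes in these comparisons.

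Set against all genes, the members lay low in both genotypes without DHX36. A gene is called here where the adjusted p of the edgeR test, over all 12765 genes, is under 0.05. In DHX36/FANCJ KO against WT all 10 members were called lower, in a comparison that called 17.3% of all genes lower and 16.6% higher. The members' median log2 fold change was -1.93, with a range from -3.21 of Myl9 to -0.52 of Actg1, beside a median of 0.01 over all genes. DHX36 KO against WT gave all 10 lower as well, with a median of -1.08, where 11.6% of all genes were called lower and 12.8% higher and the median of all genes was 0.00. Comparing DHX36/FANCJ KO with FANCJ KO, the other contrast that differs by DHX36, all 10 were lower with a median of -2.04, where 18.5% of all genes were called lower and 18.3% higher. No reading is placed on these counts, since the genes were picked with such fold changes in view. All comparisons with WT share its 3 libraries. For all 10 members the mean was lowest in DHX36/FANCJ KO and second lowest in DHX36 KO, an order seen in 16.7% of all genes tested.

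In FANCJ KO against WT most members were not called. Acta2 (0.53) and Tagln (0.38) were called higher and the other 8 were not called, in a comparison where 1.45% of all genes were called higher and 0.619% lower. Among the 8, the log2 fold change was 0.32 (SE 0.17) for Cnn1, 0.27 (SE 0.07) for Tpm1, -0.22 (SE 0.09) for Cnn2 and -0.42 (SE 0.20) for Myl9, and the remaining 4 were between -0.07 and 0.18. Libraries of FANCJ KO and WT were apart for Acta2, Tagln and Tpm1, higher in FANCJ KO, and for Cnn2 and Myl9, higher in WT. How many of all genes show such gaps, for these or other pairs of genotypes, was not counted, so no reading is placed on them. The call of Tagln was lost when DHX36/FANCJ KO replicate 2, DHX36 KO replicate 2, any of the 3 FANCJ KO libraries, WT replicate 1 or WT replicate 2 was left out, with a fold change of 0.30 to 0.42 in those fits. Tpm1 was called, at 0.28, without DHX36/FANCJ KO replicate 3.

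In cells without DHX36, loss of FANCJ went with lower levels. In DHX36/FANCJ KO against DHX36 KO, 8 of 10 members were called lower, where 11.4% of all genes were called lower and 8.28% higher, and the median was -0.85 beside 0.00 for all genes. Acta2 was 3.61-fold lower (log2 -1.85, SE 0.10), Cnn2 2.09-fold (-1.07, SE 0.09) and Tagln 2.02-fold (-1.01, SE 0.10). Actg1 (-0.08, SE 0.07) and Myl9 (-0.78, SE 0.29) were not called. Myl9 was called when DHX36/FANCJ KO replicate 3 (-1.20) or DHX36 KO replicate 3 (-0.996) was left out.

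**Figure D3:**
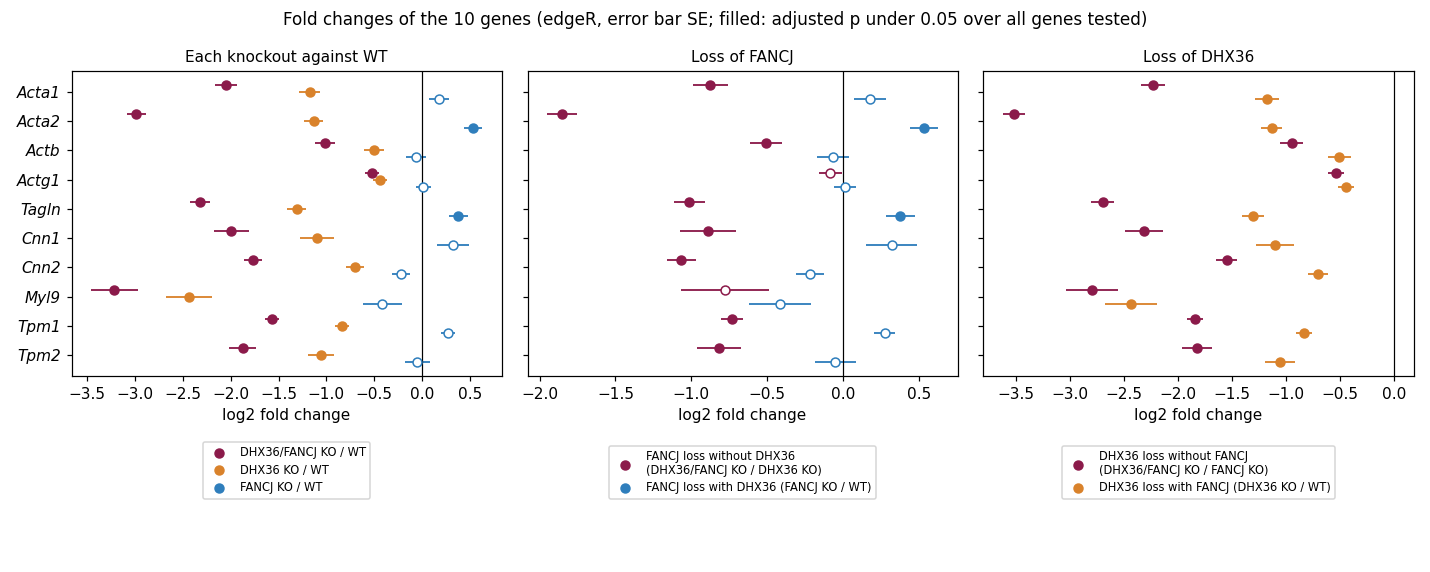
Log2 fold changes of the 10 genes (x axis; error bar, SE) for each knockout against WT (left), for FANCJ loss in cells without and with DHX36 (middle) and for DHX36 loss in cells without and with FANCJ (right), with filled points for called genes. Acta2 shows the widest gap in the middle panel, -1.85 without DHX36 and 0.53 with it, and the points of Actg1 nearly coincide.

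The difference between the fold changes with FANCJ loss, the interaction, is the log2 fold change of DHX36/FANCJ KO to DHX36 KO minus that of FANCJ KO to WT. It was called below 0 for 7 members, where 6.06% of all genes were below 0 and 2.73% above it. Acta2 had the largest at -2.38 (SE 0.14), a rank of 50 from the lowest, followed by Tagln at -1.39 (SE 0.14), Cnn1 at -1.21 (SE 0.25), Acta1 at -1.05 (SE 0.15), Tpm1 at -1.01 (SE 0.10), Cnn2 at -0.85 (SE 0.13) and Tpm2 at -0.77 (SE 0.20). Actb (-0.44, SE 0.15), Myl9 (-0.36, SE 0.35) and Actg1 (-0.10, SE 0.10) were not called. Actb was called without DHX36/FANCJ KO replicate 3 (-0.55) or FANCJ KO replicate 1 (-0.56), and Tpm2 lost its call without DHX36/FANCJ KO replicate 1 (-0.64). For the 7 genes called, the level in DHX36/FANCJ KO was thus lower than the product of the folds of both single knockouts gives. Whether this belongs to the lost helicases or to the cell lines used was not tested, as the number of clones is not given.

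Within a genotype the members did not all vary together. The libraries' deviations from their genotype means, a measure that the choice of genes did not use, had a Pearson r of -0.79 (Acta1 with Tagln) to 0.77 (Actb with Cnn2) over the 45 pairs of members, with a median of 0.26 and 31 pairs above 0. Acta2 and Tagln had 0.68, and Acta2 and Acta1 -0.52. Each r rests on 12 libraries, 3 per genotype, in which both genes of a pair share the library's depth and normalisation. Fewer than 12 of the deviations are free, as the genotype means were removed. The values were not set beside those of other gene pairs and are given as a description.

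Outside the set, the genes whose level across the 12 libraries was most like that of Acta2, of 5692 with a mean of at least 20 CPM, were Thbs1 (r of 0.994 on log2 CPM), which encodes the matrix protein thrombospondin 1, the Wnt ligand gene Wnt4 (0.994) and Wls (0.988), whose product carries Wnt proteins to the cell surface. Nearest to Tagln were the epithelial keratin gene Krt8 (0.997), the actin crosslinker Actn1 (0.994) and the annexin Anxa3 (0.993). The nearest to Actb were Gm46332 (0.972), Pcbp4 (0.969), which encodes an RNA-binding protein, and Gcsh (0.969), of the glycine cleavage system. Such values are common where genotypes fall into separate clusters, and an r above 0.9 was reached by 274 genes with Acta2, 308 with Tagln and 142 with Actb.

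Krt8, for example, was at a mean of 155 CPM in DHX36/FANCJ KO, 275 in DHX36 KO, 637 in FANCJ KO and 580 in WT. Thbs1 was at 44.8 CPM in DHX36/FANCJ KO, 92.9 in DHX36 KO, 208 in FANCJ KO and 160 in WT, so that its mean, like that of Acta2, was higher in FANCJ KO than in WT.

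Of 6 tested genes for SRF and its cofactors, 2 fell in DHX36/FANCJ KO against WT and none rose, where 17.3% of all genes fell and 16.6% rose. With 6 genes, the count cannot tell whether the list differs from the background. The list median was -0.29 beside 0.01 for all genes. Srf had a log2 fold change of -0.49 (adjusted p of 0.0103, edgeR) and Elk3, a cofactor of the ETS family, one of -1.06 (6.41e-05). The MRTF genes Mrtfa and Mrtfb had -0.26 and -0.31 and did not pass (0.172 and 0.0766), and were named after their values were seen. In DHX36 KO against WT none of the 6 passed (median -0.13), where 11.6% of all genes fell and 12.8% rose. In FANCJ KO against WT none passed either (median 0.13), where only 0.619% of all genes fell and 1.45% rose. Elk3 also had an interaction of -1.33 (0.000739). Myocd, the cofactor of smooth and heart muscle, had too few counts to be tested, with means of 0.106 CPM in DHX36/FANCJ KO, 0.411 in DHX36 KO and 0.394 in FANCJ KO, and no count in WT.

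Paralogs of the members, from the same families but outside the set, were mostly lower as well. Of 10 tested, 9 fell in DHX36/FANCJ KO against WT and none rose (median -0.77), where 17.3% of all genes fell and 16.6% rose. In DHX36 KO against WT, where 11.6% of all genes fell and 12.8% rose, 8 fell and none rose (median -0.59). In FANCJ KO against WT none of the 10 passed (median 0.02), where 0.619% of all genes fell and 1.45% rose. Here and in the other lists, genes were mostly named by fold size, and the lists were drawn up with earlier results known. The p-values printed for them are therefore descriptive. The heart actin Actc1 fell by 2.20 on the log2 scale in DHX36/FANCJ KO (adjusted p of 2.15e-07, edgeR) and by 1.07 in DHX36 KO (0.00113). Tpm4, a non-muscle tropomyosin, fell by 1.33 in DHX36/FANCJ KO (2.54e-09) and by 0.58 in DHX36 KO (0.000235), with an interaction of -0.95 (0.00017). The myosin light chain gene Myl6b fell in both, with -1.13 in DHX36/FANCJ KO (0.00801) and -1.08 in DHX36 KO (0.0191). Myl12a, the non-muscle counterpart of Myl9, fell by 1.10 in DHX36/FANCJ KO (1.64e-09) and by 0.80 in DHX36 KO (3.81e-07). The one that did not pass in DHX36/FANCJ KO, named for that, was Tagln3, the neuronal transgelin, at 0.20 (0.49).

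Of 14 other SRF target genes, 11 fell and 1 rose in DHX36/FANCJ KO against WT (median -0.95), beside 17.3% and 16.6% of all genes. In DHX36 KO against WT 9 fell and 1 rose (median -0.60), beside 11.6% and 12.8% of all genes. In FANCJ KO against WT 1 fell and 2 rose (median 0.01), beside 0.619% and 1.45% of all genes. The largest falls in DHX36/FANCJ KO were those of Fhl2 (-1.67, adjusted p of 1.52e-07, edgeR) and Pdlim7 (-1.54, 1.61e-10), both for LIM proteins that bind the cytoskeleton, Csrp1 (-1.42, 5.14e-09) and the actin crosslinker Flna (-1.39, 2.02e-11). Ccn2, named after its value was seen, was the gene that rose, by 0.40 (0.0298). Zyx, for the focal adhesion protein zyxin, was the one that rose in DHX36 KO, by 0.32 (0.0253), and is named for that, although it fell by 0.91 in DHX36/FANCJ KO (6.34e-07), both against WT. Its interaction was -1.29 (4.3e-06). In FANCJ KO against WT, the immediate early gene Fos rose by 0.81 (0.0186) and Fhl1 by 0.39 (0.0239), while the immediate early gene Egr1 fell by 0.85 (0.00227).

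Of 7 tested genes for non-muscle myosin II and its regulators, 4 fell and none rose in DHX36/FANCJ KO against WT (median -0.30), beside 17.3% and 16.6% of all genes. In DHX36 KO against WT 4 fell and none rose (median -0.48), beside 11.6% and 12.8% of all genes. In both they were Cald1, for caldesmon, which binds actin and tropomyosin (-1.16, adjusted p of 6.59e-09, edgeR, in DHX36/FANCJ KO and -0.86, 1.14e-06, in DHX36 KO), the myosin heavy chain gene Myh9 (-0.97 and -0.55), the kinase gene Rock2 (-0.60 and -0.51) and the myosin phosphatase gene Ppp1r12a (-0.30 and -0.48). Myh10 alone rose in FANCJ KO against WT, by 0.36 (0.0459), where 1.45% of all genes rose and 0.619% fell. Its adjusted p is close to the threshold of 0.05, and whether the call holds in other fits was not tested. These lists were drawn up with earlier results of the libraries known and are not independent evidence of a direction.

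**Figure D4:**
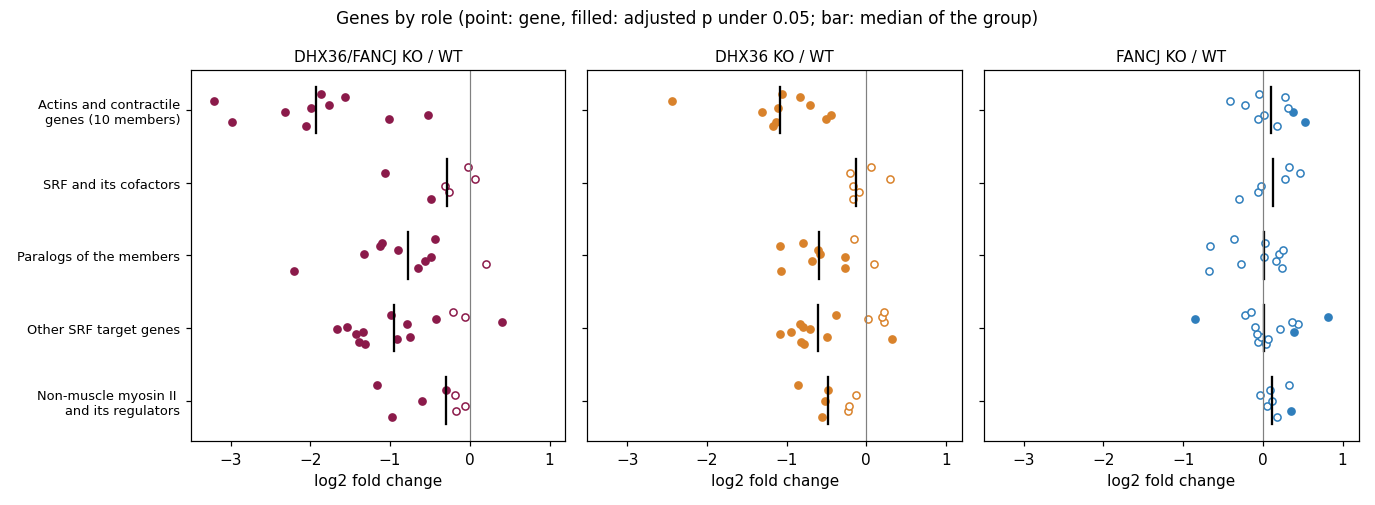
Log2 fold changes to WT (x axis) of the 10 members and of 4 lists of related genes (y axis), in DHX36/FANCJ KO, DHX36 KO and FANCJ KO from left to right; a point is a gene, filled where called, and a bar is the median of the group. In DHX36/FANCJ KO the medians run from -1.93 for the members to -0.29 for SRF and its cofactors, and in FANCJ KO all 5 lie between 0.01 and 0.13.

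The cells had the markers of embryonic stem cells in every library. The 8 markers, among them Sox2 and Nanog, were all detected and summed to 4950 to 4970 CPM in DHX36/FANCJ KO, 3880 to 4210 in DHX36 KO, 3340 to 3490 in FANCJ KO and 3640 to 3740 in WT. Sox2 and Dppa5a made up most of the sum, with means of 1980 and 1860 CPM in DHX36/FANCJ KO and 1430 and 1340 in WT. Of the 8, 5 rose and none fell in DHX36/FANCJ KO against WT, where Pou5f1 (0.14), Zfp42 (0.13) and Tfcp2l1 (0.08) did not pass. In DHX36 KO against WT 2 rose and 1 fell, Tfcp2l1 (-0.67), and in FANCJ KO none passed. Of 8 smooth muscle markers outside the set, the sum was 29.7 to 32 CPM in DHX36/FANCJ KO, 32.6 to 37.8 in DHX36 KO, 60.8 to 71.1 in FANCJ KO and 58.8 to 69.7 in WT, most of it from Smtn, which is also found outside muscle. Of the 4 with enough counts to be tested, 1 fell and none rose in DHX36/FANCJ KO against WT, which was Smtn (-1.25, adjusted p of 2.5e-08, edgeR), while Des (-0.16), Lmod1 (-0.28) and Synpo2 (-0.65) did not pass. Smtn was likewise the 1 that fell in DHX36 KO against WT, and Lmod1 the 1 that rose in FANCJ KO against WT, by 2.23 (0.0235). Lmod1 had only 107 counts over the 12 libraries, with means of 3.31 CPM in FANCJ KO (SD 1.19) and 0.733 in WT (SD 0.582). Of all genes, 17.3% fell and 16.6% rose in DHX36/FANCJ KO against WT. These shares were 11.6% and 12.8% in DHX36 KO and 0.619% and 1.45% in FANCJ KO. The defining Myh11, smooth muscle myosin, was near 0 throughout, with means of 0.585 CPM in DHX36/FANCJ KO, 0.293 in DHX36 KO, 0.374 in FANCJ KO and 0.383 in WT, and Ramp1 had no count in DHX36/FANCJ KO.

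Markers of other kinds of cells were looked at in the same way. The 10 fibroblast markers summed to 219 to 226 CPM in DHX36/FANCJ KO, 322 to 360 in DHX36 KO, 310 to 346 in FANCJ KO and 304 to 338 in WT. Of 7 tested, 4 fell and 1 rose in DHX36/FANCJ KO against WT, 1 fell and 2 rose in DHX36 KO and none passed in FANCJ KO. Col1a1 fell by 2.59 (adjusted p of 6.19e-13, edgeR) and Thy1 rose by 1.61 (2.04e-05) in DHX36/FANCJ KO. The fibroblast markers Postn, Dcn and Lum were each under 0.3 CPM on average in all genotypes. Others of the list were higher. Fn1 was at means of 142 CPM in DHX36/FANCJ KO, 160 in DHX36 KO, 175 in FANCJ KO and 157 in WT. Vim was at 47.9 CPM in DHX36/FANCJ KO, 96.3 in DHX36 KO, 72 in FANCJ KO and 77 in WT. The 10 markers of skeletal and heart muscle summed to 7.4 to 9.59 CPM in DHX36/FANCJ KO, 10.7 to 14.8 in DHX36 KO, 15.4 to 18.3 in FANCJ KO and 19.4 to 22.6 in WT, with Myf5 and Ckm at 0 in WT. The largest part of this sum was Actc1, already given among the paralogs, with means of 2.61 CPM in DHX36/FANCJ KO, 5.79 in DHX36 KO, 7.63 in FANCJ KO and 12 in WT. Of 5 tested, 2 fell (Actc1 and Nkx2-5) and 1 rose (Actn2) both in DHX36/FANCJ KO and in DHX36 KO against WT. In FANCJ KO none passed. The 9 of primitive endoderm summed to 141 to 151 CPM in DHX36/FANCJ KO, 141 to 145 in DHX36 KO, 338 to 359 in FANCJ KO and 179 to 209 in WT, with much of the sum from the basement membrane genes Col4a1, Col4a2 and Lamb1. In DHX36/FANCJ KO against WT 3 of the 9 fell, and 3 rose, which were Gata6, Sox17 and Pdgfra. The risers were low in WT, at means of 1.85, 2.58 and 0.657 CPM in turn. Gata4 (0.02), Dab2 (0.15) and Lama1 (0.16) did not pass. In DHX36 KO 3 fell and 2 rose, and in FANCJ KO 7 rose and none fell. Beside the counts of these lists, 17.3% of all genes fell and 16.6% rose in DHX36/FANCJ KO against WT. In DHX36 KO these shares were 11.6% and 12.8%, and in FANCJ KO 0.619% and 1.45%. Marker genes with values were named after these were seen. Their part in the levels of the actins and contractile genes was not tested, and in bulk RNA fewer cells of a kind and less RNA per cell cannot be told apart.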

How the data were processed

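The authors deposited whole-number counts per gene and library in 1 table, with no normalisation. Libraries followed a protocol similar to CEL-Seq2, per the labels' protocols. The submitters' processing notes list the aligner BWA and, as builds, GRCm38 and hg38, giving neither version nor role. Whether a count is a read or a unique molecule, and the use of strand, is not given in the sources used here. A multi-aligned read could therefore be split or lost among actin genes.

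All 12 libraries, 3 per genotype, entered 1 edgeR 4.0.16 quasi-likelihood model (R 4.3.3) with genotype as the term, trimmed-mean normalisation and the default filter by genotype, which kept 12765 of 32285 genes. The 92 spike-in rows, at most 0.000276% of a library, were left out. Tests were two-sided with Benjamini-Hochberg adjustment over all genes tested and a threshold of 0.05. The fit was tested on simulated data. SEs were derived from each F statistic. Deeper libraries measure low genes more precisely.

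CPM were counts over the normalised total, and r used log2 CPM (prior count 2). Genes named are the 10 members, up to 4 called genes of a list per comparison by fold size (others of the lists were named after their values were seen), the 3 genes most like Acta2, Tagln and Actb, and the targeted pair. Members and lists were chosen with earlier results of these data known. Coordinates are from GENCODE M21 (GRCm38), in which 32158 identifiers matched, and promoter windows from RefSeq (GRCm38.p6). Alternatives were DESeq2 1.42.0 size factors and its test, no filter, a replicate block, the compared genotypes alone, libraries thinned to equal depth, mitochondrial genes left out, and each library left out.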

Additional observations from a re-analysis of the deposited data

Results flagged for a closer look

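For 7 of the 10 genes, the log2 fold change with FANCJ loss differed between cells without and with DHX36. It was tested as the interaction term of the fit (edgeR, adjusted over all genes). Of all genes, 6.06% were called below 0 and 2.73% above it. The 10 genes were chosen with such values in view. How many clones stand behind a genotype is not given, and whether the difference belongs to the lost helicases or to the cell lines used was not tested. The interaction, on the log2 scale, was -2.38 for Acta2, -1.39 for Tagln, -1.21 for Cnn1, -1.05 for Acta1, -1.01 for Tpm1, -0.85 for Cnn2 and -0.77 for Tpm2. Tpm2 was not called without DHX36/FANCJ KO replicate 1 (-0.64). The log2 fold change with FANCJ loss was called lower without DHX36 for all 7, and with DHX36 it was called, and higher, for Acta2 and Tagln. With DHX36 the other 5, at 0.32 for Cnn1, 0.27 for Tpm1, 0.18 for Acta1, -0.05 for Tpm2 and -0.22 for Cnn2, were not called.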

How the results depend on the processing

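Under all alternatives run, no fold change of a member that was called changed its sign. In DHX36/FANCJ KO against WT, DHX36 KO against WT and DHX36/FANCJ KO against FANCJ KO, all 10 members were called under each. The count in FANCJ KO against WT was the least stable. From 2 it became 1 with a replicate block and 1 with the 2 genotypes alone, where Tagln lost its call, and it ranged from 1 to 3 with a library left out, Tagln losing its call in 7 of these fits. Tpm1 gained a call there with DESeq2 size factors, with the DESeq2 test and without mitochondrial genes. Without the expression filter Myl9 gained one in DHX36/FANCJ KO against DHX36 KO and Actb in the interaction. Why these calls moved was not tested. The count of all genes called in FANCJ KO against WT, 264, was 418 without the filter, 159 with the 2 genotypes alone, 110 and 143 without FANCJ KO replicates 1 and 3 in turn, and 130 and 131 without WT replicates 1 and 2 in turn. Libraries with a shared number did not deviate together (18 pairs, r of -0.06 to 0.05, 4 of 12 libraries closest to their own number). No pairing by number was thus visible, which does not tell whether such libraries were prepared together. Among the refitted fold changes of members, 1110 kept their side of the threshold, 10 lost a call and 10 gained one. Another sign was found for 5 of them, all uncalled and in FANCJ KO against WT, which were Actb without FANCJ KO replicate 1 (0.06), Actg1 without FANCJ KO replicate 2 (-0.05), WT replicate 1 (-0.0065) or WT replicate 3 (-0.003), and Tpm2 without FANCJ KO replicate 3 (0.0048). Scaling moved the median of all genes by at most 0.018. Depth limits Myl9 most, with 17 to 31 counts in DHX36/FANCJ KO.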
